A study of Homo sapiens with 12 samples.

Results

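Aminoacyl-tRNA synthetases are the enzymes that join each amino acid to its transfer RNA before the ribosome uses it. The genes described here are 38 listed members, chosen by name when earlier results of these data were known. They comprise 19 cytosolic synthetase genes, 16 genes for mitochondrial synthetases (symbols ending in S2) and 3 genes for scaffold proteins. Of these, 34 were in the table of 16599 genes and all 34 passed the filter on low counts, among 15991 genes tested. They were all 19 cytosolic genes, 13 mitochondrial genes and the scaffold genes AIMP1 and AIMP2. The mitochondrial genes AARS2, MARS2 and SARS2 and the scaffold gene EEF1E1 were not analysed here. Member counts ran from 174 to 19190 reads in a library, so no member was near the limit of detection.

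The libraries came from polyadenylated RNA of A549 and H1650, 2 human lung adenocarcinoma lines grown as epithelial cells. In each line, cells labelled as over-expressing SRSF2, a serine/arginine-rich splicing factor, were compared with cells labelled untreated, with 3 libraries in each of the 4 groups. The titles of the untreated libraries carry the letters NC, which the labels do not explain, and the labels give neither a construct nor whether the over-expressing cells were a clone or a pool. Nothing in the labels says that replicates were separate cultures, so p-values here measure the spread between libraries, which may be technical. Library totals ran from 23876899 to 32079027 counts, and SRSF2 counts were not analysed here. The biological coefficient of variation was 0.0298 to 0.0344 in 3 groups and 0.0559 in the H1650 SRSF2 libraries. All 6 epithelial markers were present at a summed 9325 to 10459 CPM (counts scaled to a library total of 1000000). Of the leukocyte markers only CD14 was in the table, at no more than 6.58 CPM, and of the fibroblast markers 2 of 5 were, at a summed 8.63 to 22.7 CPM, while none of the endothelial or erythroid markers was in the table.

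Cells carry separate synthetase sets for the cytosol and for the mitochondrion, although both are encoded in the nucleus, and a few enzymes serve both places from one gene (GARS1 for glycine and KARS1 for lysine). Several cytosolic synthetases sit together in the multisynthetase complex, which the scaffold proteins AIMP1, AIMP2 and EEF1E1 hold together. Uncharged transfer RNA activates the kinase EIF2AK4 (GCN2), which leads to translation of the transcription factor ATF4, and many cytosolic synthetase genes are known ATF4 targets through an amino acid response element. WARS1, the cytosolic tryptophanyl-tRNA synthetase, differs from the others in being a classical interferon-gamma-induced gene with interferon response sites near its start.

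The start regions were therefore searched for these elements, and the windows are shown because WARS1 carries letters there that most members lack. RefSeq promoter windows (GRCh38.p14, 250 bases before to 50 after a start) were matched for 33 of the 38 listed genes, 45 windows in all. The WARS1 gene (ENSG00000140105, GRCh38 chr14:100333788-100376805, minus strand) has 2 such windows. The downstream window at chr14:100375298-100375597 is printed 5′ to 3′ on the gene's strand, with the matches in capitals.
WARS1 downstream start: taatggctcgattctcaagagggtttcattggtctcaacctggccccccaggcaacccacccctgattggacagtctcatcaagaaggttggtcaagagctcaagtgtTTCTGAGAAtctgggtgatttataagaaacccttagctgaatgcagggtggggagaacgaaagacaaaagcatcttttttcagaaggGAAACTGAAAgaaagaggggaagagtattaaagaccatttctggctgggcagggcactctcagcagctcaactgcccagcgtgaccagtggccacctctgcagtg
The first capitals are TTCTGAGAA, a match to TTCNNNGAA, letters searched as a second interferon-responsive motif, at 142 to 134 bases before the start. The second are GAAACTGAAA, a match to the interferon-stimulated response element, searched as GAAA, any 2 bases and GAAA, at 55 to 46 bases before it. The upstream WARS1 window at chr14:100376278-100376577 held neither. Searched on both strands, that element was in 3.57% of all 35116 windows and in 3 of the 45 member windows, those of WARS1 and EARS2. TTCNNNGAA was in 7.66% of all windows and in 7 of the 45 member windows, those of CARS1, PARS2, TARS1, WARS1 and WARS2. A match is a string of letters and does not show binding.

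The amino acid response element was searched as TGATGNAA on both strands. It was in 3.62% of all windows and in 8 of the 45 member windows, 1 for each of 8 genes: AARS1, CARS1, GARS1, IARS1, MARS1, NARS1, TARS1 and YARS2. Stretches around the match are shown for 5 of them, 5′ to 3′ on the gene's strand with the match in capitals. The 5 were chosen after their values were seen. They lie in CARS1 at chr11:3057402-3057441 (- strand), MARS1 at chr12:57488048-57488087 (+ strand), AARS1 at chr16:70289670-70289709 (- strand), GARS1 at chr7:30594829-30594868 (+ strand) and IARS1 at chr9:92293687-92293726 (- strand), all on GRCh38.p14.
CARS1: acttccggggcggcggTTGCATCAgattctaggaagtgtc
MARS1: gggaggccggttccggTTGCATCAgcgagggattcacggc
AARS1: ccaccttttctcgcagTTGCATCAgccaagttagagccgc
GARS1: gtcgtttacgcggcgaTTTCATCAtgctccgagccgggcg
IARS1: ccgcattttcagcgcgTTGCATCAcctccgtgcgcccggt
The H1650 log2 fold changes of these 5 genes were 0.24 for CARS1, 0.10 for MARS1, 0.03 for AARS1, -0.17 for GARS1 and -0.64 for IARS1. CARS1 and MARS1 rose, GARS1 and IARS1 fell, and AARS1 did not pass the test (adjusted p = 0.49). Of the other 3 genes with a match, NARS1 (-0.19) and YARS2 (-0.49) fell and TARS1 (0.02) did not pass. Over all genes tested, 31.0% rose and 31.3% fell in H1650. No match of one motif overlapped a match of another in these windows.

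WARS1 rose in both lines, and in H1650 it rose far more than any other member. In untreated H1650 its level was 108, 108 and 104 CPM in the 3 libraries, and in the SRSF2 libraries it was 606, 602 and 626 CPM. The groups lay far apart and each was narrow. The rise was 5.74-fold (log2 2.52, SE 0.04, edgeR quasi-likelihood test, adjusted p = 2.3e-32 by Benjamini-Hochberg over all genes tested). This was rank 221 from the highest among the 15991 genes tested. In A549 the level was 41.0, 39.8 and 40.6 CPM in untreated and 51.9, 49.8 and 45.7 CPM in SRSF2 libraries. These groups did not overlap either, with a rise of 1.21-fold (log2 0.28, SE 0.05, adjusted p = 1.6e-05). The rise was larger in H1650 than in A549 by 2.24 on the log2 scale (SE 0.06, adjusted p = 1.4e-24). WARS1 overlaps WDR25 by 388 bases on the other strand, a gene at a mean of 13.9 CPM, and 1 pseudogene bears its name; the strandedness of the counting is not stated, so reads in such overlaps cannot be told apart.

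**Figure D1:**
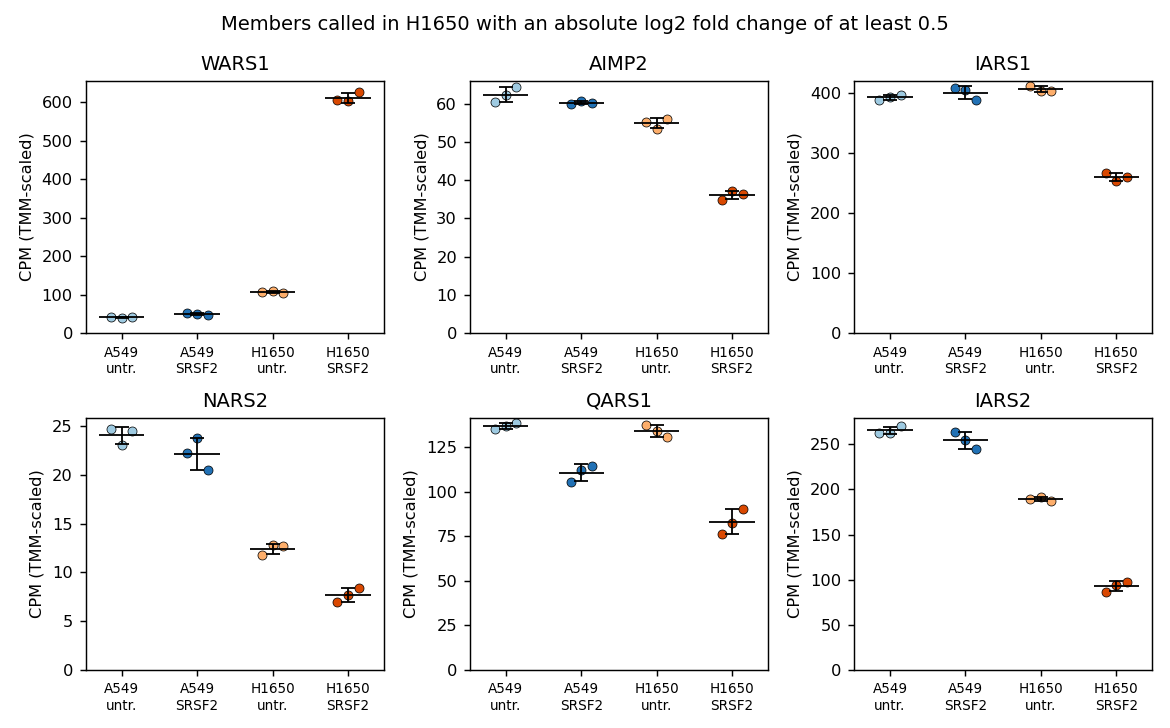
CPM (scaled by the trimmed mean of M values) of 6 members in each of the 12 libraries, with the mean and SD of each group of 3 as a line and bars; the 6 are WARS1 and the members called in H1650 with an absolute log2 fold change of at least 0.5. WARS1 is above 600 CPM in the H1650 SRSF2 libraries and under 110 in every other library, while the other 5 are lower in H1650 SRSF2 than in untreated H1650 libraries with no overlap.

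This placed WARS1 among the abundant synthetase messages. Per kilobase of exon, its level was 16.8 ± 0.38 CPM in untreated H1650 (SD, n = 3), the 19th highest of the 34 members, and 96.2 ± 2.01 CPM in H1650 SRSF2 libraries, the 3rd highest. The 2 above it, AARS1 (97.7 ± 2.21) and GARS1 (97.3 ± 1.00), lay within its SD. Such ranks depend on the length of all merged exons of a gene. In untreated A549 the WARS1 level was 6.36 ± 0.10 CPM per kilobase, the 28th. WARS1 took 2.76 ± 0.06% of the counts of the 19 cytosolic synthetases in untreated H1650 and 14.9 ± 0.18% in SRSF2 libraries. In A549 that share was 1.21 ± 0.02% and 1.48 ± 0.08%. Set against the other members, the WARS1 log2 fold change lay 2.69 above the median of the remaining 33 in H1650 and 0.29 above it in A549, where WARS2 (0.31) rose by slightly more.

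Among the 34 members in H1650, 10 rose, 17 fell and 7 did not pass the test. Over all genes tested 62.3% were called in this comparison, 31.0% higher and 31.3% lower. The groups did not overlap for 28 members, against 64.7% of all genes. The median member log2 fold change was -0.11, against 0.00 for all genes, and without WARS1 it was -0.17 with a range of -1.03 to 0.44. An absolute log2 fold change of at least 0.5 was reached by 6 members, against 29.9% of all genes, and apart from WARS1 these all fell. In bulk RNA of this kind, a lower level in every cell and a loss in some of the cells cannot be told apart.

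**Figure D2:**
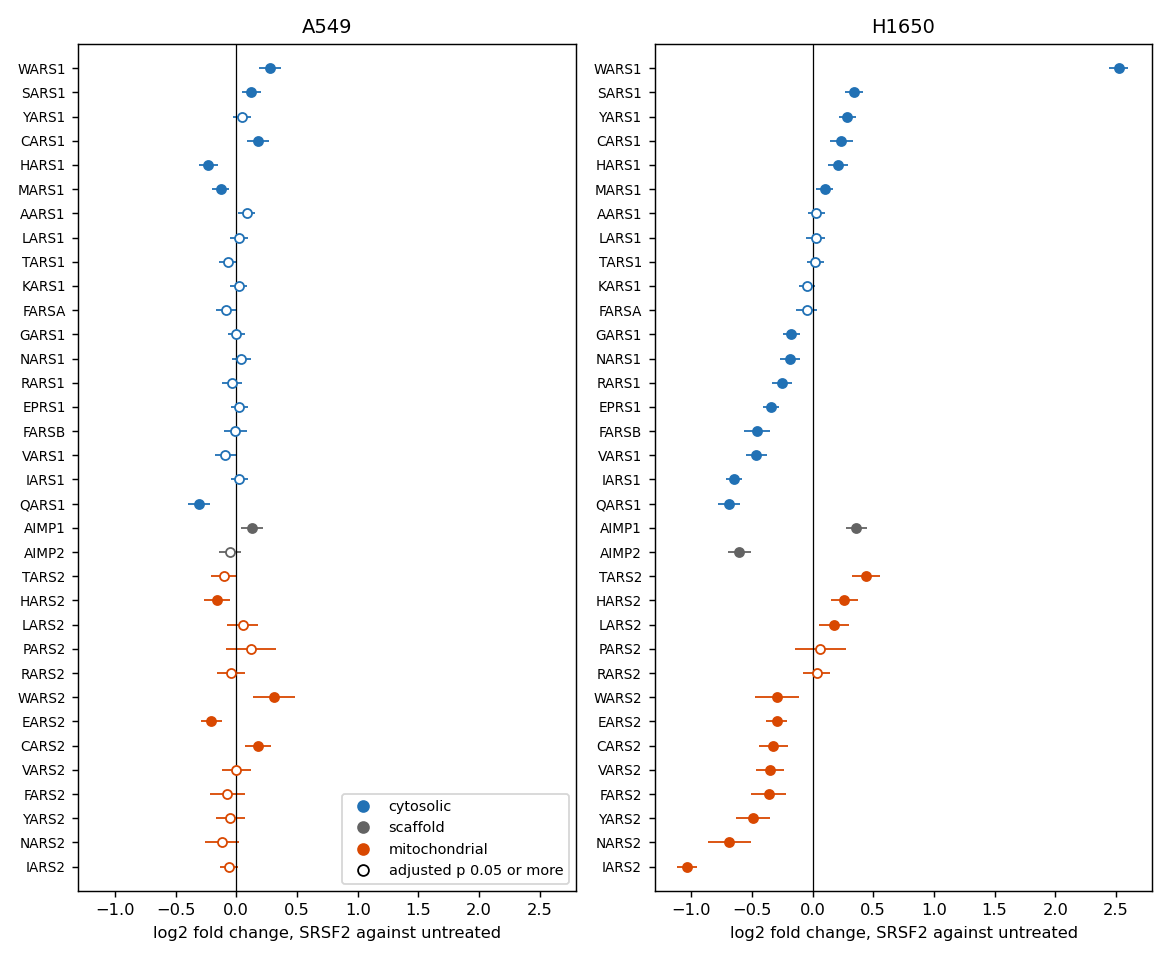
Log2 fold changes (SRSF2 against untreated) of the 34 members in A549 and H1650 with 95% intervals, ordered by class and by the H1650 value; filled points have an adjusted p under 0.05. In A549 all points lie between -0.31 and 0.31, and in H1650 they run from -1.03 (IARS2) to 0.44 (TARS2) apart from WARS1 at 2.52.

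Of the 18 other cytosolic synthetases in H1650, 5 rose, 8 fell and 5 did not pass, with a median log2 fold change of -0.05. The shares of all genes tested were 31.0% higher and 31.3% lower. QARS1, the glutaminyl-tRNA synthetase, had 137, 134 and 131 CPM in untreated and 76.4, 82.2 and 90.5 CPM in SRSF2 libraries. It fell by 0.69 (SE 0.05, adjusted p = 1.0e-14) with no overlap. It also fell in A549, by 0.31 (SE 0.05, adjusted p = 3.4e-06), from 135, 137 and 138 CPM to 105, 112 and 114 CPM. QARS1 is thus the cytosolic member that was lower with SRSF2 in both lines, and its fall was larger in H1650 by 0.38 on the log2 scale (adjusted p = 1.1e-05).

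IARS1, which charges isoleucine transfer RNA in the cytosol, stood at 412, 404 and 404 CPM in untreated H1650 libraries and at 267, 254 and 260 CPM in SRSF2 libraries. It fell by 0.64 (SE 0.03, adjusted p = 1.3e-17), and the groups were well separated. In A549 it was 389, 393 and 397 CPM against 408, 404 and 388 CPM, which overlapped (log2 0.03, adjusted p = 0.61). The difference between the lines was -0.67 (adjusted p = 1.5e-13).

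The remaining cytosolic genes that fell in H1650 did so by less. VARS1, for valine, and FARSB, a subunit of the phenylalanyl enzyme, each fell by 0.46. FARSA, the other subunit of that enzyme, was at 74.8 ± 2.03 CPM in untreated and 72.3 ± 0.44 CPM in SRSF2 libraries and did not pass (log2 -0.05, adjusted p = 0.35), so the subunits of 1 enzyme did not share a call. EPRS1, a fused glutamyl-prolyl enzyme, fell by 0.34, RARS1 for arginine by 0.25, NARS1 for asparagine by 0.19 and GARS1 by 0.17. Those that rose, besides WARS1, were SARS1 for serine (0.34), YARS1 for tyrosine (0.28), CARS1 for cysteine (0.24), HARS1 for histidine (0.21) and MARS1 for methionine (0.10). MARS1 moved least, and its call was lost without untreated replicate 1 or 2 or without SRSF2 replicate 3 of H1650, and on log2(FPKM + 1) and log2(FPKM + 0.1) values. It overlaps DDIT3 by 982 bases on the other strand, a gene at 3.32 CPM on average. GARS1, KARS1, LARS1 and YARS1 also overlap counted genes on the other strand. AARS1 (alanine), KARS1, LARS1 (leucine) and TARS1 (threonine) lay between -0.05 and 0.03.

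The scaffold genes went in opposite directions in H1650. AIMP2 had 55.3, 53.4 and 55.9 CPM in untreated and 34.9, 37.1 and 36.4 CPM in SRSF2 libraries, and fell by 0.60 (SE 0.05, adjusted p = 5.9e-13). AIMP1 had 71.4, 72.7 and 67.3 CPM in untreated and 90.7, 90.3 and 90.4 CPM in SRSF2 libraries, and rose by 0.36 (SE 0.04, adjusted p = 9.0e-09). For neither gene did the groups overlap. In A549, AIMP2 did not pass (log2 -0.05, adjusted p = 0.46). AIMP1 was called at 0.13 (adjusted p = 0.026), a call lost with DESeq2 size factors, with DESeq2 itself and on leaving out each of 5 of the 6 A549 libraries in turn. AIMP2 shares 1591 bases with EIF2AK1 and AIMP1 shares 5952 bases with TBCK, in each case on the other strand. EIF2AK1 was at a mean of 218 CPM, above the level of AIMP2, and TBCK at a mean of 18.1 CPM. The strandedness of the counting is not stated, so reads in these overlaps cannot be told apart.

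Taking the multisynthetase complex as a list, 9 of its 10 listed genes were tested. In H1650, EPRS1, IARS1, QARS1, RARS1 and AIMP2 fell, MARS1 and AIMP1 rose, and KARS1 and LARS1 did not pass, with a median log2 fold change of -0.25. In A549, 1 of the 9 rose and 2 fell, with a median of 0.02. Among all genes tested, 31.0% rose and 31.3% fell in H1650, and 16.4% rose and 15.9% fell in A549. These counts describe the list and were not compared with other lists.

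Mitochondrial synthetases were lower on balance in H1650, where 3 of 13 rose, 8 fell and 2 did not pass, with a median log2 fold change of -0.30. Among all genes tested, 31.0% rose and 31.3% fell. IARS2, the mitochondrial isoleucyl enzyme (GRCh38 chr1:220094102-220148041), had 189, 191 and 187 CPM in untreated and 86.3, 93.8 and 97.3 CPM in SRSF2 libraries. It was 2.04-fold lower with no overlap (log2 -1.03, SE 0.04, adjusted p = 5.5e-21), the largest fall of any member, and rank 633 from the lowest among the 15991 genes tested. In A549 it was 263, 263 and 270.4 CPM against 264, 255 and 245 CPM, groups that overlapped (log2 -0.06, SE 0.04, adjusted p = 0.26). The difference between the lines was -0.97 (SE 0.06, adjusted p = 9.0e-16).

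NARS2, the mitochondrial asparaginyl enzyme, went from 11.8, 12.8 and 12.6 CPM to 6.93, 7.65 and 8.42 CPM in H1650. It fell by 0.69 (SE 0.09, adjusted p = 3.5e-08) with no overlap. In A549 it had 24.7, 23.1 and 24.5 CPM in untreated and 22.2, 23.8 and 20.5 CPM in SRSF2 libraries, which overlapped (log2 -0.12, adjusted p = 0.23). YARS2 fell by 0.49, FARS2 by 0.36, VARS2 by 0.35, CARS2 by 0.32, EARS2 by 0.30 and WARS2 by 0.29. YARS2 shares 18161 bases with DNM1L on the other strand, a gene at a mean of 38.1 CPM. WARS2 shares 276 bases with AL359915.2, at a mean of 21.5 CPM, above the level of WARS2 itself. EARS2 shares 370 bases with UBFD1 (mean 197 CPM) and CARS2 868 bases with ING1 (mean 15.1 CPM). NARS2 shares 8089 bases with AP003086.2 (mean 0.36 CPM). These too lie on the other strand, and reads in such overlaps cannot be told apart. VARS2 shares 5865 bases with GTF2H4 on the same strand, a gene without counts here.

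Against this direction, TARS2, the mitochondrial threonyl enzyme, rose by 0.44 in H1650 (SE 0.06, adjusted p = 3.9e-08). Its libraries read 22.2, 21.9 and 21.6 CPM in untreated and 30.5, 29.2 and 29.6 CPM with SRSF2, without overlap. HARS2 rose by 0.26, and LARS2 by 0.18 (adjusted p = 0.017). The LARS2 groups overlapped, and its call was lost without untreated replicate 1 or 3 or SRSF2 replicate 1 or 3, and on log2(FPKM + 1) and log2(FPKM + 0.1) values. PARS2 (0.06) and RARS2 (0.04) did not pass.

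Comparing the classes, the cytosolic median log2 fold change lay above the mitochondrial one by 0.25 in H1650 and by 0.07 in A549. Members are not replicates, so this difference carries no test. It depends on the scale and on the pseudocount: with log2(FPKM + 1) values the H1650 difference was -0.08, but with log2(FPKM + 0.1) values it stayed above 0. Summed CPM gave the same comparison without ratios. The 13 mitochondrial genes summed to 527 ± 6.86 CPM in untreated H1650 and to 403 ± 6.32 CPM with SRSF2, and the 18 cytosolic genes without WARS1 to 3752 ± 19.5 and 3478 ± 23.4 CPM. Neither pair of groups overlapped. A large share of the mitochondrial difference lay in IARS2: without it, a choice made after its value was seen, the sum was 338 ± 5.40 CPM in untreated and 310.3 ± 3.36 CPM in SRSF2 libraries. With WARS1 included, the cytosolic sum was 3859 ± 20.8 CPM in untreated and 4090 ± 36.1 CPM in SRSF2 libraries, so that WARS1 alone turned the direction of the sum.

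**Figure D3:**
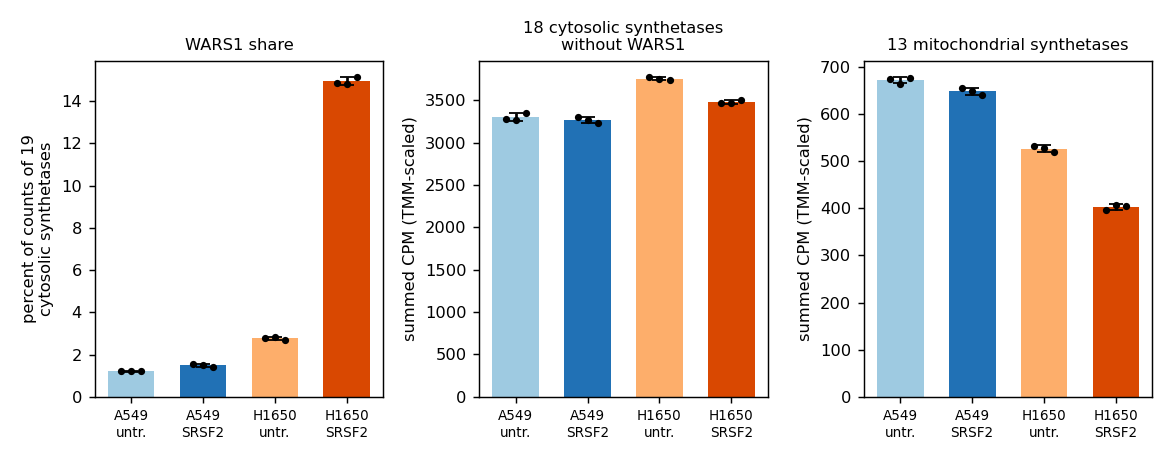
Share of WARS1 in the counts of the 19 cytosolic synthetases (left, percent), summed CPM of the 18 other cytosolic synthetases (middle) and of the 13 mitochondrial synthetases (right), as means with SD bars and 1 point per library, 3 libraries a group. The WARS1 share is 14.9% in H1650 SRSF2 and under 3% in the other groups, and the mitochondrial sum is lowest in H1650 SRSF2 libraries at 403 CPM.

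A cytosolic and a mitochondrial gene could be paired for 10 amino acids, leaving out EPRS1 and the subunit genes FARSA and FARSB. Over all genes tested, 31.0% rose and 31.3% fell in H1650, and 16.4% rose and 15.9% fell in A549. With such shares, partners can differ in their calls without any link to the pairing, and the calls are given as a description. In H1650 they were as follows. For isoleucine, asparagine and valine both genes fell. For histidine both rose. For cysteine, tryptophan and tyrosine the cytosolic gene rose while the mitochondrial gene fell, the widest gap being that of WARS1 (2.52) and WARS2 (-0.29). For leucine and threonine the mitochondrial gene rose while the cytosolic gene did not pass, and for arginine the cytosolic gene fell while RARS2 did not pass. In A549 both genes rose for cysteine and tryptophan, both fell for histidine, and neither passed for the other 7.

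HARS1 and HARS2 are neighbours that point away from each other, and they are shown because they moved together in each line and in opposite directions between the lines. Their RefSeq starts lie 85 bases apart, and their promoter windows share 184 bases at chr5:140691321-140691504 (GRCh38.p14), with 14 CG pairs and a GC content of 61.4%. The shared stretch is printed 5′ to 3′ on the plus strand, the strand of HARS2.
HARS1 and HARS2 shared stretch: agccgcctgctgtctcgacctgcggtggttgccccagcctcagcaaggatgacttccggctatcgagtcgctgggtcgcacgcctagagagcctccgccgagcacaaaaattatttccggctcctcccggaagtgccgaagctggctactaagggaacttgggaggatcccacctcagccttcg
HARS1 had 124, 121 and 122 CPM in untreated A549 and 108, 104 and 101 CPM with SRSF2, and fell by 0.23 (SE 0.04, adjusted p = 3.5e-05). In H1650 it had 85.9, 80.0 and 84.1 CPM in untreated and 95, 96.7 and 96.9 CPM with SRSF2, and rose by 0.21 (SE 0.04, adjusted p = 6.0e-05). The groups did not overlap in either line.

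HARS2 followed the same signs. It had 50.8, 48.4 and 46.2 CPM in untreated A549 and 41.0, 42.4 and 46.9 CPM with SRSF2, groups that overlapped (log2 -0.16, SE 0.05, adjusted p = 0.025). This call was lost without replicate 1 or 2 of either A549 group. In H1650 it had 31.9, 32.8 and 31.4 CPM in untreated and 37.6, 39.7 and 38 CPM with SRSF2, and rose by 0.26 (SE 0.06, adjusted p = 0.00015). The differences between the lines were 0.44 for HARS1 (adjusted p = 1.4e-07) and 0.42 for HARS2 (adjusted p = 3.8e-05). The genes overlap by 437 bases in GENCODE 29 on opposite strands, and reads there cannot be told apart. HARS2 also overlaps ZMAT2 by 639 bases on the same strand, a gene at a mean of 119 CPM. HARS1 also overlaps WDR55 by 221 bases on the other strand, a gene at a mean of 43.7 CPM.

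In A549, changes were small: 6 members rose, 5 fell and 23 did not pass, and all 34 log2 fold changes lay between -0.31 and 0.31. Over all genes tested 32.3% were called, 16.4% higher and 15.9% lower, and 7.34% were called with an absolute log2 fold change of at least 0.5. The groups did not overlap for 14 of the 34 members, against 45.6% of all genes, and the median member log2 fold change was -0.00. WARS2, the mitochondrial tryptophanyl enzyme, was at 10.2, 10.5 and 10.02 CPM in untreated and at 12.1, 13.2 and 12.95 CPM in SRSF2 libraries, and rose by 0.31 (SE 0.09, adjusted p = 0.0058). CARS1 and CARS2 each rose by 0.18, SARS1 and AIMP1 by 0.13. Besides QARS1, HARS1 and HARS2, EARS2 fell by 0.21 and MARS1 by 0.13. Without A549 untreated replicate 2, the number called higher was 3 in place of 6, since SARS1, CARS2 and AIMP1 were lost. The SARS1 call was also lost without A549 SRSF2 replicate 2.

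By class, 3 of 19 cytosolic genes rose and 3 fell in A549 (median log2 fold change 0.02), and 2 of 13 mitochondrial genes rose and 2 fell (median -0.05). The shares of all genes tested were 16.4% higher and 15.9% lower. The 13 mitochondrial genes summed to 672 ± 6.91 CPM in untreated and to 649 ± 7.22 CPM in SRSF2 libraries, and the 18 cytosolic genes without WARS1 to 3298 ± 47.3 and 3268 ± 35.4 CPM. The mitochondrial sums did not overlap between the groups (664 to 677 against 641 to 656 CPM).

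The lines differed in their response for 24 of the 34 members, 8 higher and 16 lower in H1650, against 47.5% of all genes (23.5% higher and 24.0% lower). An absolute difference of at least 0.5 was called for 8 members, against 24.0% of all genes. Of the 13 mitochondrial genes, 2 were higher and 7 lower in this difference, with a median of -0.29, and of the 19 cytosolic genes 5 were higher and 8 lower, with a median of -0.06. Only CARS2 and WARS2 rose in A549 and fell in H1650, with differences of -0.50 and -0.61 (adjusted p = 3.3e-06 and 0.00018). HARS1, HARS2 and MARS1 fell in A549 and rose in H1650. AIMP1, CARS1, SARS1 and WARS1 rose in both lines and EARS2 and QARS1 fell in both. Across the 34 members the log2 fold changes of the lines had a Pearson r of 0.42 and a Spearman rho of 0.31, and without WARS1 0.21 and 0.26; these are descriptions across genes that share the same libraries.

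With H1650 SRSF2 replicate 3 left out, 17 members were called lower and 8 higher in H1650, since the higher calls of MARS1 and LARS2 were lost.

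Without over-expression the lines already differed in most members, as they did in most genes tested. In H1650, 11 members were higher and 17 lower than in A549, beside 82.4% of all genes called (40.1% higher and 42.3% lower). The groups did not overlap for 29 of the 34, beside 84.0% of all genes. An absolute log2 difference of at least 0.5 was called for 15 members, against 61.7% of all genes. WARS1 was higher in H1650 by 1.40 on the log2 scale (SE 0.04, adjusted p = 4.3e-25) and GARS1 by 1.11, from 211 ± 5.24 to 456 ± 10.4 CPM. SARS1 (0.84), KARS1 (0.68), TARS1 (0.58) and VARS2 (0.53) were also higher. The members lower in H1650 were led by NARS2 (-0.96), FARSB (-0.91), TARS2 (-0.85), YARS2 (-0.78), CARS2 (-0.65) and NARS1 (-0.63). Among mitochondrial genes 2 were higher and 7 lower, and among cytosolic genes 8 were higher and 9 lower. The higher call of RARS2 (0.15) was lost with upper-quartile scaling, with DESeq2, on both kinds of log2 FPKM values and without H1650 untreated replicate 1, where FARS2 gained a call.

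**Figure D4:**
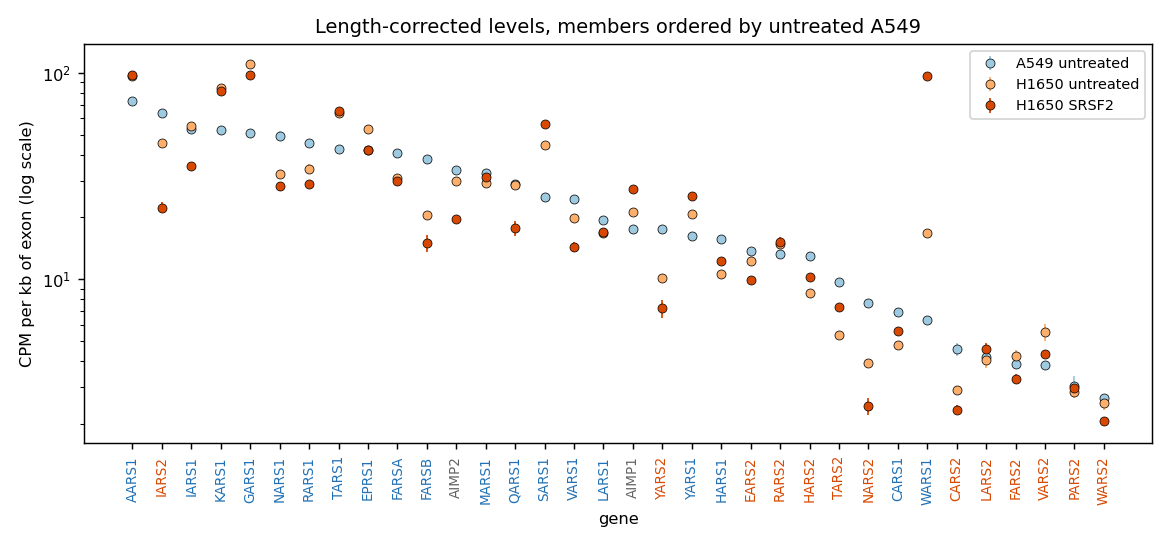
CPM per kilobase of exon on a log scale for the 34 members, ordered by untreated A549, in untreated A549, untreated H1650 and H1650 SRSF2 libraries (means of 3, SD bars); label colours give the class (blue cytosolic, red mitochondrial, grey scaffold). WARS1 goes from 6.36 and 16.8 in the untreated lines to 96.2 in H1650 SRSF2, and IARS2 is the mitochondrial member that lies among the most abundant cytosolic ones in A549.

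Per kilobase of exon, cytosolic genes had a median level of 38.3 CPM in untreated A549 and 30.7 CPM in untreated H1650, and mitochondrial genes 7.64 and 5.37 CPM. IARS2 was the exception, with 63.7 ± 1.02 CPM per kilobase in untreated A549, 2nd among the 34 members behind AARS1 (72.8 ± 2.27). It was 7th in untreated H1650 at 45.4 ± 0.53 CPM per kilobase and 15th with SRSF2 at 22.2 ± 1.34. GARS1 led in untreated H1650 at 109.8 ± 2.51 CPM per kilobase and WARS2 had the lowest level in all 4 groups.

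The proteins that work beside the synthetases were read from lists chosen by role. Over all genes tested, 31.0% rose and 31.3% fell in H1650, and 16.4% rose and 15.9% fell in A549, and each list count is given as a description beside these shares. For mitochondrial charging and translation, 3 of 22 genes rose and 8 fell in H1650 (median log2 fold change -0.08). MTRF1L, a release factor, rose by 0.87 and TRMT10C, a subunit of mitochondrial RNase P, by 0.73, while GTPBP3, a tRNA-modifying GTPase, fell by 0.69 and PUS1, a pseudouridine synthase, by 0.43. In A549, 2 rose and 4 fell, among them MTIF2 (0.16) and GTPBP3 (-0.23). Another list held cytosolic elongation and termination factors and subunits of the initiation factor eIF2. Of its 14 tested genes, 4 rose and 5 fell in H1650, and 2 rose and 1 fell in A549. EEF2K, the kinase that inhibits elongation factor EEF2, fell by 1.22 in H1650 (from 91.1 ± 0.93 to 39.1 ± 3.71 CPM), EEF1D by 0.69 and the recycling factor ABCE1 by 0.65, while EEF2 rose by 0.23 in H1650 and 0.19 in A549.

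For tRNA editing, export and processing, 5 of 20 rose and 10 fell in H1650 (31.0% and 31.3% of all genes), and 5 fell in A549, where the other 15 did not pass. TSEN54, a subunit of the tRNA splicing endonuclease, fell by 0.32 in A549, and TSEN34 of the same complex fell by 0.14 in A549 and 0.40 in H1650. The export receptors XPOT and XPO5 fell by 0.29 and 0.37 in H1650, and the methyltransferase subunit TRMT6 rose by 0.40.

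ATF4 and its target genes were read beside the synthetases that are known targets. ATF4 had 248, 239 and 256 CPM in untreated A549 and 361, 363 and 348 CPM with SRSF2, and rose by 0.53. In H1650 it went from 285, 275 and 282 CPM to 502, 516 and 454 CPM, a rise of 0.81, larger than in A549 by 0.28 (adjusted p = 0.00011). Of the 34 tested genes on the list of ATF4 and its amino acid response targets, which holds no synthetase, 16 rose and 16 fell in H1650 (median log2 fold change -0.00; 31.0% and 31.3% of all genes) and 11 rose and 7 fell in A549 (0.02). PPP1R15A, a regulatory subunit of the phosphatase that acts on eIF2, rose by 3.27 and 2.38 in H1650 and A549, and ATF3 by 3.40 and 3.23. NUPR1 rose by 2.48 and VLDLR fell by 1.30 in H1650. The 8 members with the TGATGNAA match showed 2 rises, 4 falls and 2 without a call in H1650. Whether ATF4 has a part in the changes of these members was not tested.

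Of 13 kinases and sensors upstream of ATF4, 3 rose and 7 fell in H1650 (median -0.22; 31.0% and 31.3% of all genes), and 5 rose and 1 fell in A549 (median 0.10; 16.4% and 15.9% of all genes). EIF2AK4, the kinase that senses uncharged tRNA, fell by 0.24 in H1650 (60.5 ± 4.07 to 51.1 ± 0.99 CPM) and did not pass in A549 (66.7 ± 2.11 and 71.6 ± 0.89 CPM, adjusted p = 0.10). EIF2AK2 rose by 0.55 in A549, and RRAGC, a GTPase of amino acid sensing, by 0.47 in A549 and 0.79 in H1650. RPTOR fell by 0.39 and IMPACT, an inhibitor of the EIF2AK4 pathway, by 0.51 in H1650.

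Of 16 tested genes of the interferon-gamma response, 12 rose and 2 fell in H1650 (median 0.81; 31.0% and 31.3% of all genes), and 9 rose in A549, where the other 7 did not pass (median 0.32; 16.4% of all genes rose). IRF1, the transcription factor that binds response elements of the kind printed for WARS1, had 46.7, 46.8 and 47.7 CPM in untreated H1650 and 136, 150 and 157 CPM with SRSF2, and rose by 1.65 (SE 0.05). In A549 it had 34.0, 29.5 and 30.8 CPM in untreated and 41.1, 38.1 and 41.3 CPM with SRSF2, and rose by 0.35 (SE 0.06), so the rise was larger in H1650 by 1.30 (adjusted p = 1.8e-15). CD274 rose by 1.57, GBP3 by 1.11 and GBP1 by 0.97 in H1650, and GBP1 by 1.37 in A549. Whether these regulators have a part in the WARS1 change was not tested.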

How the data were processed

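Polyadenylated RNA of both lines was sequenced in 12 libraries, 3 a group. The deposited raw counts are whole numbers for each gene. Per the submitters' processing notes, the authors used the trimmer fastp (0.20.1), the aligner STAR (2.7.7a), the counter featureCounts (2.0.0) and the build GRCh38. The annotation release, strandedness and gene filter are not given in the sources used here. FPKM values were also deposited by the authors and served in alternatives only. Counts were tested with edgeR 4.0.16 (R 4.3.3): filterByExpr, TMM scaling, 1 quasi-likelihood fit over all 12 libraries (a mean for each of 4 groups, 8 residual degrees of freedom), and Benjamini-Hochberg adjustment over 15991 genes, called at an adjusted p under 0.05. Each SE was taken from the F statistic and the log2 fold change and is approximate, and 95% intervals are 1.96 SE to either side. CPM are TMM-scaled, and levels between genes are per kilobase of merged GENCODE 29 exons, which also gave coordinates. Symbols were matched for 16076 gene IDs.

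The members and lists were chosen with earlier results of these data known. Every member may be named. Values by library are given for members called with an absolute log2 fold change of at least 0.5 and for WARS1 by rule, and for AIMP1, TARS2, HARS1, HARS2 and WARS2 by a choice made after their values were seen. Other lists give at most 4 genes with the smallest adjusted p per line, and always ATF4, EIF2AK4 and IRF1; 1 further gene is not reported here. Replicates differed by more than sampling noise (chi-square over its degrees of freedom 2.28 to 8.12). Residuals of same-numbered libraries correlated at -0.088 to 0.07, so numbers were not taken as pairs. Alternatives were other scalings, DESeq2 1.42.0, limma 3.58.1 on counts and on log2(FPKM + pseudocount) values, no filter, a replicate block, fewer libraries and leaving out each library. The fit was tested on simulated data with known changes, set in genes drawn at random from those tested. Only a small part of the genes was changed in each line, far fewer than were called in the data. Each simulated gene had 1 spread for all groups, although the H1650 SRSF2 libraries varied more. Changes of 1.25-fold were recovered for 60% of such genes in A549, 48% in H1650 and 38.8% for the difference. Of the calls made, 6.17%, 4.32% and 3.89% were false. These rates belong to that setting and were not measured for the contrasts reported here. A small change can fail to pass.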

Additional observations from a re-analysis of the deposited data

Results flagged for a closer look

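For 24 of the 34 members the response to SRSF2 over-expression differed between the lines by edgeR's test of the difference itself (adjusted p under 0.05, where 47.5% of all genes were called). The values are log2 fold changes in H1650 minus those in A549. The response was higher in H1650 for WARS1 2.24, TARS2 0.55, HARS1 0.44, HARS2 0.42, YARS1 0.24, MARS1 0.23, AIMP1 0.23 and SARS1 0.22. It was lower for the cytosolic genes IARS1 -0.67, FARSB -0.45, QARS1 -0.38, EPRS1 -0.37, VARS1 -0.37, NARS1 -0.23, RARS1 -0.22 and GARS1 -0.18, for the mitochondrial genes IARS2 -0.97, WARS2 -0.61, NARS2 -0.57, CARS2 -0.50, YARS2 -0.44, VARS2 -0.35 and FARS2 -0.29, and for the scaffold gene AIMP2 -0.55. The FARS2 difference was lost without A549 untreated replicate 2, H1650 untreated replicate 2 or H1650 SRSF2 replicate 1.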

How the results depend on the processing

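Over all alternatives, 2822 values of single members were computed: 2767 stayed on the same side of the threshold, 33 lost the call, 22 gained one and none reversed a call. Among the 2767, 48 values without a call changed sign, at an absolute log2 of at most 0.068. With the replicate number as a block, the members called stayed 6 higher and 5 lower in A549, 10 and 17 in H1650, 8 and 16 for the difference and 11 and 17 between the untreated lines, and all genes called were 5146, 9919, 7589 and 13150 against 5162, 9957, 7601 and 13182 without it. Leaving out single libraries gave 3 to 7 members called higher in A549 (3 without A549 untreated replicate 2) and 8 to 10 in H1650. The cytosolic minus mitochondrial median in A549 (0.067) ran from 0.048 to 0.072 on leaving out single libraries (0.048 without A549 SRSF2 replicate 2) and was 0.026 with log2(FPKM + 1) and 0.051 with log2(FPKM + 0.1). In H1650 (0.25) it was -0.083 with log2(FPKM + 1), a reversal, and 0.036 with log2(FPKM + 0.1). WARS1 minus the median of the others was 0.14 with log2(FPKM + 1) in A549 (0.29), and 2.11 and 2.52 with pseudocounts of 1 and 0.1 in H1650 (2.69). The cause of these shifts was not tested. The fit on only the 6 libraries compared gives no value for the difference of the contrasts. The 95% interval of PARS2 in H1650, the member with the fewest counts, ran from -0.15 to 0.27.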
